A study of Mus musculus with 6 samples.

Results

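A set of 10 smooth muscle type and cytoskeletal genes was followed in cultured fibro-adipogenic progenitors, mesenchymal cells that lie between muscle fibres and give rise to fibroblasts or adipocytes. They were the actins Acta2 and Actg2, the myosin light chain Myl9, the tropomyosins Tpm1 and Tpm2, the transgelins Tagln and Tagln2, the calponins Cnn1 and Cnn2, and the LIM domain gene Lmcd1. The 10 genes were taken by symbol from the 41388 genes of the deposited count table, and all 10 had enough counts to be tested. They were chosen with earlier results of these data known. The cells were primary cultures from muscle of wild-type (wt) male mice, grown with serum and FGF. Over 2 days they received PGE2 (500 nM, once per day) or vehicle, and polyadenylated RNA was sequenced in 3 libraries per group. No label ties a library to an animal or a culture, so p-values cover only the spread between these libraries, which may be technical. The age of the mice is not given in the labels.

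Myofibroblasts are fibroblasts that carry contractile bundles of actin and myosin. Their hallmark genes are those of smooth muscle, and many are switched on by serum response factor (SRF) together with cofactors of the myocardin family. Some of these cofactors enter the nucleus when free actin monomer becomes scarce. In damaged muscle, fibro-adipogenic progenitors are a known source of such cells, and TGF-beta is the classical inducer. PGE2 acts through receptors that change cyclic AMP and calcium, and in human lung fibroblasts it is known to oppose the turn to myofibroblasts.

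The proximal promoters show which of these genes carry binding sequences for SRF close to the start of transcription. RefSeq promoter sequences of GRCm38.p6, from 250 bases before to 50 bases after the start, matched 8 of the 10 genes by symbol, all but Actg2 and Tagln. Each was searched on both strands for the CArG box that SRF binds, for a CArG box with 1 G or C in its middle part, for the cyclic AMP response element TGACGTCA and for CATTCC, the MCAT element bound by TEAD factors. The motifs searched did not overlap each other in these windows. The promoters of Acta2, Myl9, Lmcd1 and Cnn2 are printed because they hold CArG type letters, with every match in capitals. Acta2 is chr19:34255324-34255623 on the minus strand, Myl9 is chr2:156775214-156775513, Lmcd1 is chr6:112273508-112273807 and Cnn2 is chr10:79988350-79988649, the latter 3 on the plus strand.
Acta2: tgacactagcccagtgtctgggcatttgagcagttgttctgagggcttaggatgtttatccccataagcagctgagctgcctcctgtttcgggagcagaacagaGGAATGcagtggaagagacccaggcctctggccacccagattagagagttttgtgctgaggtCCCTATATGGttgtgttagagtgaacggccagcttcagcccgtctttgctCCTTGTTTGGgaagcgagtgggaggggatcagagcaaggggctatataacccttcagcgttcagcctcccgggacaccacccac
Myl9: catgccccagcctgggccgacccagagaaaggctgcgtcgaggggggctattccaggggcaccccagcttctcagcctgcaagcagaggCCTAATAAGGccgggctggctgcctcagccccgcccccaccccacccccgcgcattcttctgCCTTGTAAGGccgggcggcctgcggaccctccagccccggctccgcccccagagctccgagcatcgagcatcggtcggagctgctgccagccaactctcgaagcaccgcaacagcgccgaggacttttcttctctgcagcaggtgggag
Lmcd1: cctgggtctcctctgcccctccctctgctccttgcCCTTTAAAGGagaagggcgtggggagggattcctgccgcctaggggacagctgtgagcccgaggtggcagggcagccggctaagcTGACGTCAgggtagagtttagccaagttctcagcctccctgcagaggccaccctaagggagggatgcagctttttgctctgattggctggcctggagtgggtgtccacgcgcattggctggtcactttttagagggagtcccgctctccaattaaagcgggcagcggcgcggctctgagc
Cnn2: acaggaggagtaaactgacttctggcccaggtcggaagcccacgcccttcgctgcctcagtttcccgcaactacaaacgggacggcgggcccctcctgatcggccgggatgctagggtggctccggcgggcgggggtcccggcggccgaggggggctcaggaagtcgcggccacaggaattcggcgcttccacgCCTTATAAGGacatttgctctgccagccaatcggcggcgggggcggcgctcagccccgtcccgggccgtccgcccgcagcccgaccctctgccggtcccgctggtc

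Acta2 held 2 CArG type matches, CCCTATATGG and CCTTGTTTGG, each with 1 G or C inside the box. They begin at bases -84 and -34 from the start, and the MCAT letters in reverse orientation lie at -146. Bases are counted here from the start used by the RefSeq set. For Acta2 that start lies inside the gene span given below, so these are not distances from the end of that span. Myl9 held a full CArG box, CCTAATAAGG, at -161 and CCTTGTAAGG at -99. Lmcd1 held the full box CCTTTAAAGG at -215 and the cyclic AMP response element TGACGTCA at -130. Cnn2 held CCTTATAAGG at -56. Tpm1 and Tagln2 held MCAT letters, and no motif searched was found in the windows of Cnn1 and Tpm2. Of 32851 RefSeq promoters of this length, 1.63% held a full CArG box, 8.5% the form with 1 G or C, 1.79% TGACGTCA and 14.7% CATTCC. A match of letters is a description of the sequence and no measurement of binding.

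Totals ranged from 21006044 counts in vehicle library 2 to 52730962 in PGE2 library 2, and 3 counts corresponded to 0.0582 to 0.142 CPM, the count scaled to library size and composition. In the edgeR quasi-likelihood test of PGE2 against vehicle, 52 of 15186 tested genes passed a Benjamini-Hochberg adjusted p of 0.05, 32 higher and 20 lower, or 31 higher and 34 lower when libraries were scaled by their totals alone. With the replicate number as a block, called the paired fit here, 2189 genes passed. The labels do not state this pairing, and the data could not settle it for numbers 2 and 3. Shorter transcripts tended to be higher under PGE2: over 15098 genes, themselves no replicates of each other, Spearman's rho between fold change and length was -0.408. The 10 genes have a median transcript length of 1883 nt against 3200 nt over all tested genes, so the paired fit corrected for length is given beside the 10 genes, and beside other genes that passed in the paired fit where it ends the call or changes the value by more than 1.5 times.

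All 10 genes had higher mean levels under PGE2, and Lmcd1, Myl9, Actg2, Cnn1, Tagln and Acta2 differed most. Lmcd1 rose 2.7-fold and was the gene of the 10 that passed the unpaired test, where 0.211% of all tested genes passed upward. In the paired fit 8 of the 10 rose, with 6.91% of all genes rising. They were Lmcd1, Myl9, Actg2, Cnn1, Tagln, Acta2, Tpm1 and Tpm2, with unpaired log2 fold changes from 1.43 down to 0.41. The broadly expressed relatives Tagln2 and Cnn2 had the smallest differences, 0.25 and 0.21, and passed in neither fit. With the paired fit and the length correction 3 of the 10 rose, Lmcd1, Tpm1 and Tpm2, against 8.82% of all genes. With the length correction and no block 0 of the 10 passed, against 0.0593% of all genes upward and 0.0988% in either direction. At an unadjusted p under 0.05 in that fit there were 8 of the 10, and 2490 of 15186 tested genes in either direction. At an unadjusted p under 0.05 without the correction 8 of the 10 were higher, against 9.99% of all genes. DESeq2 called 7 of the 10, against 3.39% of all genes upward and 7.27% in either direction. Limma-voom called 0 of the 10, against 0.0527% upward and 0.0988% in either direction. Its unadjusted p was under 0.05 for 8 of the 10, and for 2975 of 15186 tested genes in either direction.

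**Figure D1:**
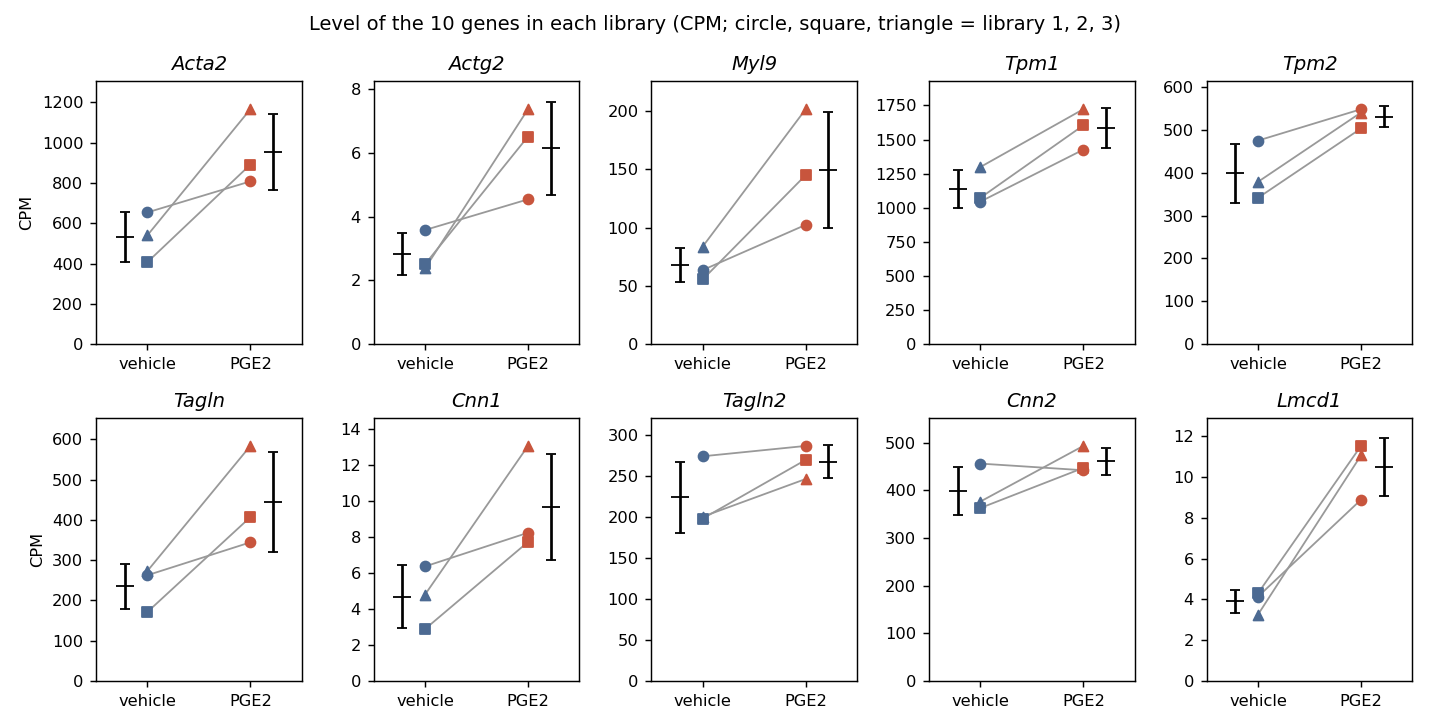
Level of each gene in CPM (vertical axis, from 0) in the vehicle and PGE2 libraries. Grey lines join same-numbered libraries, and black bars are the mean ± SD of 3 libraries. The groups do not overlap for 8 genes, and they overlap for Tagln2 and Cnn2.

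Acta2, the smooth muscle alpha actin whose protein marks the myofibroblast, lies on the minus strand of chromosome 19 at 34241090 to 34255590 of mm10 (ENSMUSG00000035783). Vehicle libraries 1 to 3 held 654, 407 and 540 CPM of it, and PGE2 libraries 1 to 3 held 808, 891 and 1166 CPM. Every PGE2 library was above every vehicle library, and the closest values were those of the libraries numbered 1. The log2 fold change was 0.84 ± 0.205 (SE), or 1.79-fold, with an adjusted p of 0.119 unpaired and 0.0119 paired. After correction for length the paired value was 0.75 ± 0.253 and did not pass (adjusted p = 0.196).

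Actg2, the gamma actin of visceral smooth muscle, was scarce. It lies on chromosome 6 at 83512905 to 83536265 (ENSMUSG00000059430) and had 53 to 154 counts in vehicle and 211 to 336 counts in PGE2 libraries. That was 3.58, 2.51 and 2.38 CPM with vehicle and 4.54, 6.51 and 7.37 CPM with PGE2, again with no overlap. The log2 fold change was 1.11 ± 0.242, with an adjusted p of 0.0987 unpaired, 0.0177 paired and 0.0958 paired with the length correction. No window of 100 bases, the read length, in the longest Acta2 or Actg2 transcript occurred unchanged in the transcripts of another gene of the GENCODE annotation.

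Myl9 encodes the regulatory light chain of smooth muscle myosin, whose phosphorylation starts contraction. It lies on chromosome 2 at 156775420 to 156781658 (ENSMUSG00000067818). It stood at 63.6, 55.6 and 83.8 CPM with vehicle and at 102, 145 and 202 CPM with PGE2. All PGE2 libraries were above all vehicle libraries, and their spread was wider, with a coefficient of variation of 33.2% against 21.5%. The log2 fold change was 1.14 ± 0.27, or 2.21-fold. Its adjusted p was 0.12 unpaired, 0.00119 paired and 0.109 paired with the length correction.

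Tpm1 and Tpm2 encode tropomyosins, which lie along actin filaments and control the access of myosin. Tpm1 had the highest level of the 10 genes, at 1045, 1073 and 1299 CPM with vehicle and 1426, 1604 and 1722 CPM with PGE2. Tpm2 was at 475, 341 and 379 CPM with vehicle and 548, 503 and 540 CPM with PGE2. Neither gene had overlapping groups, yet the lowest PGE2 library was close to the highest vehicle library in both. Their log2 fold changes were 0.48 ± 0.126 and 0.41 ± 0.129, smaller than those of the actins and Myl9. Both rose in both paired fits, without the length correction and with it (Tpm1, adjusted p = 0.00671 and 0.000565; Tpm2, 0.0128 and 0.0099). Tpm1 lies on chromosome 9 at 67022590 to 67049406 and Tpm2 on chromosome 4 at 43514711 to 43523765, both on the minus strand, and both make several isoforms that a count per gene adds together.

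Tagln (transgelin, or SM22 alpha) binds actin and is an early marker of smooth muscle differentiation. Its level was 262, 171 and 273 CPM with vehicle and 344, 407 and 584 CPM with PGE2, with no overlap. The log2 fold change was 0.92 ± 0.248, with an adjusted p of 0.139 unpaired, 0.0106 paired and 0.198 paired with the length correction. Tagln spans 45929619 to 45936058 on the minus strand of chromosome 9. Of 1496 windows of 100 bases in its longest transcript, 33.2% also occur in transcripts of other genes, chiefly Gm48529. Both orientations were searched together. The strand setting of the counts is not stated, so the Tagln count may hold reads of that gene. Such windows made up 0% in each of the other 9 genes.

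Cnn1, the basic calponin of smooth muscle, binds actin and restrains myosin. It was at 6.37, 2.89 and 4.81 CPM with vehicle and 8.25, 7.73 and 13.1 CPM with PGE2, with no overlap, and had the widest relative spread of the 10 genes among vehicle libraries. The log2 fold change was 1.02 ± 0.318, with an adjusted p of 0.162 unpaired, 0.0153 paired and 0.0607 paired with the length correction. Cnn1 lies at 22099216 to 22109630 on chromosome 9.

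Lmcd1 encodes a LIM and cysteine-rich domain protein known in mouse as a cofactor of GATA6 that limits its binding to DNA. It lies on chromosome 6 at 112273758 to 112330425 (ENSMUSG00000057604). Its level was 4.14, 4.31 and 3.26 CPM with vehicle and 8.89, 11.5 and 11.1 CPM with PGE2. The lowest PGE2 library had more than the highest vehicle library by a wide margin, and the groups were the most clearly apart of the 10 genes. The log2 fold change was 1.43 ± 0.165, which ranked 42 among 15186 tested genes, with an adjusted p of 0.0369 unpaired, 0.000246 paired and 7.4e-05 paired with the length correction. The unpaired call was lost when any library other than PGE2 library 1 was left out, with an adjusted p from 0.0509 to 0.231 and a log2 fold change from 1.31 to 1.5. Without PGE2 library 1 it stood (1.54, adjusted p = 0.0152).

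Tagln2 and Cnn2 are the forms of transgelin and calponin found in many cell types. Tagln2 was at 274, 198 and 200.3 CPM with vehicle and 287, 269 and 246 CPM with PGE2. Cnn2 was at 456, 363 and 377 CPM with vehicle and 442, 447 and 493 CPM with PGE2. In both genes vehicle library 1 lay among the PGE2 libraries. Their log2 fold changes were 0.25 ± 0.139 and 0.21 ± 0.11, with adjusted p of 0.348 and 0.333 unpaired and 0.0593 and 0.151 paired. With block and length correction the values were 0.14 (adjusted p = 0.254) and 0.15 (0.282). Without vehicle library 1 the unpaired value of Tagln2 was 0.42 (adjusted p = 0.16). Without pair 1 or 3 the paired value of Cnn2 was 0.35 or 0.12 (0.0718 and 0.225). Tagln2 lies on chromosome 1 at 172500047 to 172507380 and Cnn2 on chromosome 10 at 79988584 to 79996062.

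**Figure D2:**
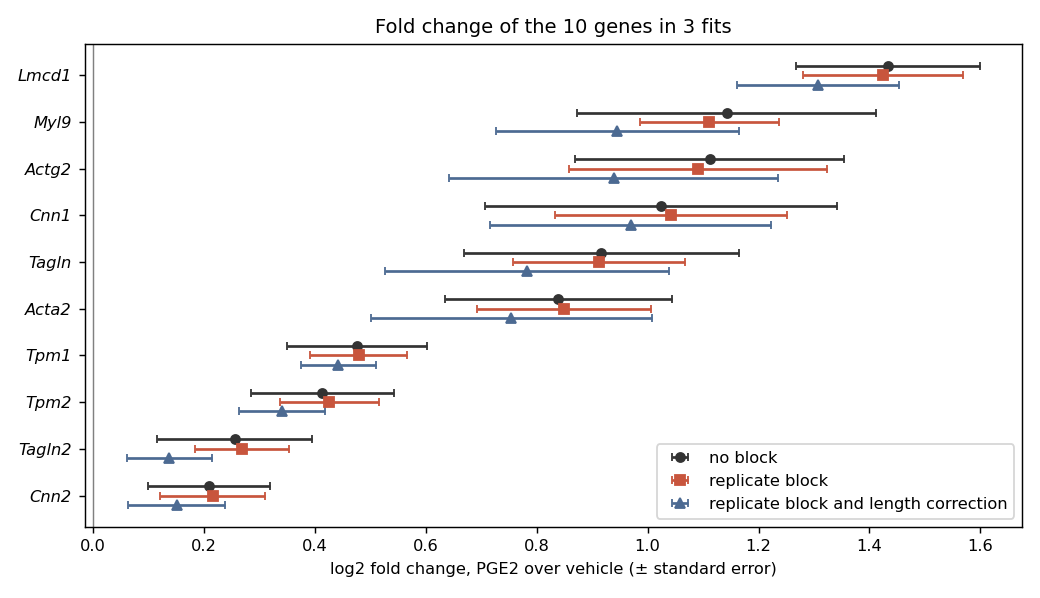
Log2 fold change of PGE2 over vehicle (horizontal axis) with its standard error for each gene, without a block, with the replicate block, and with the block and the length correction. All 30 values lie above 0, and Lmcd1, Myl9, Actg2, Cnn1, Tagln and Acta2 lie between 0.75 and 1.43.

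Ordered by level per length, the vehicle means in CPM per kb were 394 ± 48.1 for Tpm1 and 262 ± 60.7 for Acta2 (SD, n = 3). Tpm2, Cnn2, Tagln and Tagln2 followed between 183 and 141, and neighbours in that order differed by less than the larger of their SDs, which were 20.5 to 35.1. Myl9 stood at 60 ± 12.9, and Lmcd1, Actg2 and Cnn1 were between 2.26 and 1.97 with no difference beyond their spread. Under PGE2 the means were 548 ± 51.6 for Tpm1 and 469 ± 92.1 for Acta2, apart by less than the SD of Acta2. Tagln at 279 ± 77.9 then stood above Tpm2 at 244 ± 11, by less than its SD, and Cnn2 and Tagln2 were at 187 and 169. Myl9 was at 133 ± 44.1, and Lmcd1, Actg2 and Cnn1 were between 6.07 and 4.07. Lengths are those of the longest annotated transcript, so these levels are approximate for genes with several isoforms.

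Within same-numbered libraries, 9 of the 10 genes were higher under PGE2 in all 3 pairs, as were 26.6% of all tested genes. Groups that did not overlap, with PGE2 higher, were found for 8 of the 10 genes and for 13.7% of all tested genes, or 25.9% in either direction. The difference was not the same size in each pair. The median log2 difference over the 10 genes was 0.35 in pair 1, 1.19 in pair 2 and 1.10 in pair 3, while the median over all tested genes was -0.00463, 0.0107 and -0.000919. Acta2 differed by 0.30, 1.13 and 1.11, Cnn1 by 0.37, 1.41 and 1.44, and Actg2 by 0.34, 1.36 and 1.61 in pairs 1 to 3. Lmcd1 differed by 1.09, 1.41 and 1.75, and Tpm1 by 0.45, 0.58 and 0.41. Cnn2 was lower under PGE2 in pair 1, at -0.04. In the paired fit without pair 3, Acta2, Myl9 and Tagln no longer passed (adjusted p = 0.447, 0.292 and 0.419), and without pair 2 Tpm1 and Tpm2 did not (0.0911 and 0.104). Tagln2 passed without pair 1 (0.0326) or pair 3 (0.0178).

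**Figure D3:**
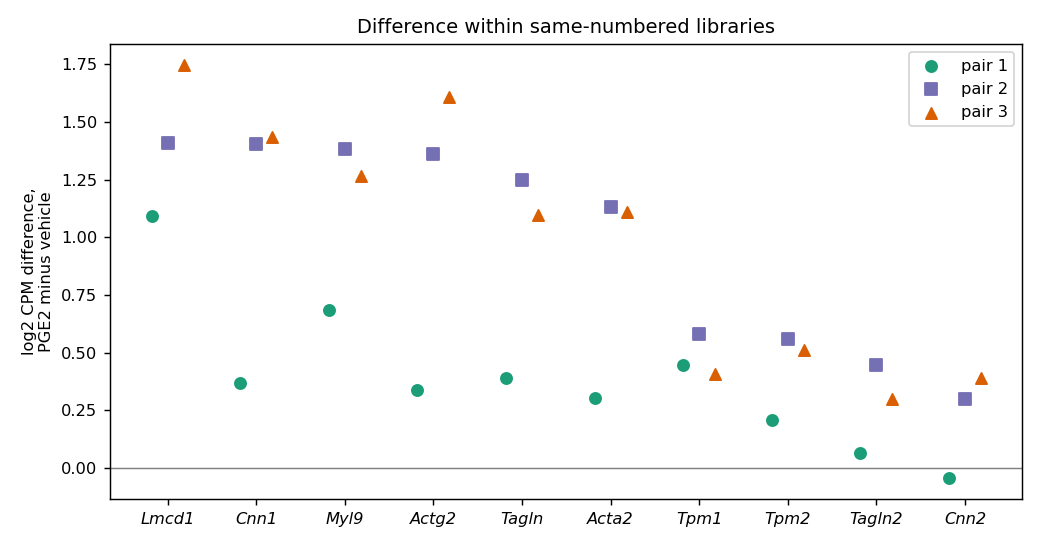
Difference in log2 CPM, PGE2 minus vehicle, within same-numbered libraries (vertical axis) for each gene. For the genes from Lmcd1 to Acta2 pair 1 lies lowest, and the tropomyosins, Tagln2 and Cnn2 lie between -0.04 and 0.58 in every pair.

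The deviations of these genes across the 6 libraries ran largely together. Pearson's r of a gene's log2 CPM with the mean of the other 9 was highest for Acta2 (0.988), Actg2 (0.96) and Tagln (0.957) and lowest for Tagln2 (0.641). Genes outside the 10 whose pattern was most like their mean were Traf7 (r = 0.996), Rrp1b (0.994), Rrs1 (0.991), Cdipt (0.988), Tmem189 (0.988), Tssc1 (0.984), Ndufaf4 (0.984) and Fermt2 (0.982). The step in these genes was smaller, with log2 fold changes from 0.09 for Traf7 to 0.43 for Tmem189. These correlations only describe 6 libraries that differ by treatment, depth and pair.

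To set each smooth muscle type gene against its closest relatives, its share of the family's counts per length was taken in every library. Acta2 made up 12.5%, 11.2% and 13.6% of counts of 6 actin genes in vehicle libraries 1 to 3 and 16.4%, 17.9% and 22.6% in PGE2 libraries 1 to 3. The share was higher in every PGE2 library, by 6.53 percentage points (12.4% ± 1.22 to 18.9% ± 3.21, SD, n = 3). Its exact two-sided permutation p was 0.1, the smallest that 3 libraries against 3 allow, and 0.233 adjusted over 7 shares. Actg2 went from 0.1% ± 0.00758 to 0.186% ± 0.0401 of actin counts and Cnn1 from 0.551% ± 0.192 to 0.998% ± 0.237 of 3 calponin genes, each with the same p and no overlap.

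Among the 3 myosin regulatory light chain genes, Myl9 held 13.7%, 14.3% and 17.8% with vehicle and 17%, 23.9% and 32.8% with PGE2. Tagln held 48.8%, 46.2% and 57.5% of the transgelin counts with vehicle and 54.4%, 60% and 70.2% with PGE2. Both shares were higher in all 3 pairs, but their groups overlapped (exact two-sided permutation p = 0.2 each, 0.28 adjusted). Tpm1 held 30.1% ± 3.88 and 32.2% ± 2.22 of 4 tropomyosin genes, and Tpm2 13.9% ± 1.47 and 14.4% ± 0.734, differences smaller than the SD of the vehicle libraries. Tpm1 was higher in 3 of 3 pairs and Tpm2 in 2 of 3 (exact two-sided permutation p = 0.6 each).

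**Figure D4:**
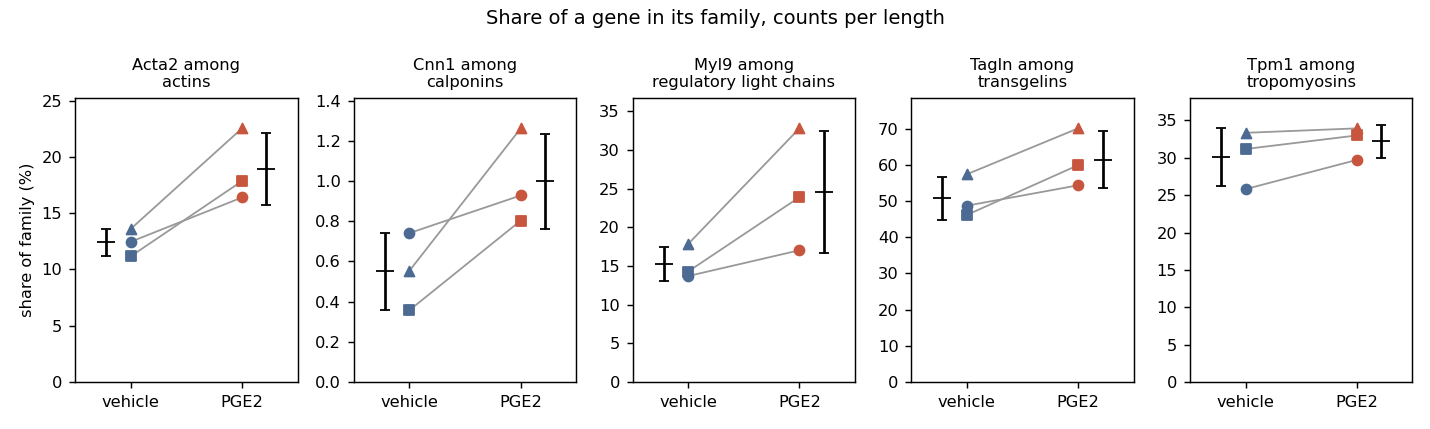
Share (percent, from 0) of Acta2, Cnn1, Myl9, Tagln and Tpm1 in the counts per length of their gene families. Lines join same-numbered libraries and black bars are mean ± SD of 3 libraries; the groups stand apart for Acta2 and Cnn1 and overlap for Myl9, Tagln and Tpm1.

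The rest of the contractile programme had a smaller median difference, and log2 fold changes of its genes are given without the block unless stated. Over 7 lists with 86 genes in the table, 83 were tested. Their median log2 fold change was 0.06, against 0.88 over the 10 genes and -0.001 over all tested genes. The 10 genes and the lists were chosen with earlier results of these data known. The medians are therefore a description and no test of a difference. Unpaired, 1 of the 83 passed, and in the paired fit 12 rose and 7 fell, or 14 and 8 with the length correction. Over all tested genes the paired fit called 6.91% higher and 7.51% lower, 14.4% in all. With the length correction these were 8.82% and 7.97%, 16.8% in all. At an unadjusted p under 0.05 in either direction the unpaired fit held 25 of the 83, and 3049 of 15186 tested genes. DESeq2 called 15 contractile genes outside the 10, and 932 of 12828 genes in all.

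None of the 4 other actins passed unpaired, with 0 at an unadjusted p under 0.05 and 0 by DESeq2. The cytoplasmic actins Actb and Actg1, present in nearly all cells, had log2 fold changes of 0.02 and 0.27 and passed in neither fit. The sarcomeric actins Acta1 and Actc1, made by muscle fibres and heart, were at -0.46 and -1.03, and Acta1 fell in the paired fit (-0.56, adjusted p = 0.0118). Both sarcomeric actins are also in the list of 12 myogenic genes below.

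Of 10 thin filament genes, 0 passed edgeR unpaired, with 3 at an unadjusted p under 0.05 and 2 past the threshold by DESeq2. With the block 2 rose. Lmod1, a leiomodin that starts actin filaments in smooth muscle, was at 5.58, 4.73 and 4.71 CPM with vehicle and 7.95, 9.32 and 13.5 CPM with PGE2, a log2 fold change of 1.03 (paired adjusted p = 0.00609, or 0.0029 with the length correction). Tpm4, a tropomyosin of non-muscle cells, was at 0.40 (paired adjusted p = 0.0183). Tmod2 and Cnn3 were at -0.32 and 0.16 and did not pass. Cald1 rose only with block and length correction (0.23, adjusted p = 0.0339).

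Of 18 tested myosin chains and regulators, 0 passed edgeR unpaired, with 6 at an unadjusted p under 0.05 and 3 past the threshold by DESeq2. With the block 3 rose, the essential light chain Myl6 (0.39), the regulatory light chain Myl12a (0.32) and the small GTPase Rhoc (0.28), and 0 fell. Rhoc did not pass once length was corrected as well (0.11, adjusted p = 0.205), which left 2. The non-muscle heavy chain Myh10 and the kinase Rock1 were at -0.39 and -0.33 and did not pass. Myh11, the smooth muscle myosin heavy chain, was scarce at 0.816 CPM with vehicle and 1.07 CPM with PGE2.

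Of 8 tested genes of SRF and its partners, 0 passed edgeR unpaired, with 4 at an unadjusted p under 0.05 and 2 lower by DESeq2. With the block Srf rose slightly (0.26, adjusted p = 0.0412), and its cofactor Mkl2 (-0.58) and the transcription factor Gata6 (-0.50) fell. The related cofactor Mkl1 was at 0.014 and did not pass (paired adjusted p = 0.909). With vehicle Mkl1 stood at 74.9 CPM and Mkl2 at 25.8 CPM. The SRF partner Elk4 was at -0.40 and did not pass (paired adjusted p = 0.0577), but fell with block and length correction (-0.33, 0.0418), where Mkl2 was at -0.36. Myocd, the smooth muscle and heart cofactor myocardin, had 0 to 3 counts per library and was not tested.

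Of 22 adhesion, crosslinker and LIM genes, 0 passed edgeR unpaired, with 6 at an unadjusted p under 0.05 and 5 past the threshold by DESeq2. With the block the LIM genes Csrp1 (0.45), Pdlim7 (0.40) and Fhl2 (0.36) rose, and 2 fell, the actin bundling Synpo2 (-0.65) and the tensin Tns1 (-0.39). Length correction beside the block ended the call of Tns1 (-0.15, adjusted p = 0.095), and Synpo2 and Fhl2 still passed at -0.41 and 0.23. There Vcl also rose (0.25, adjusted p = 0.0267) and Fhl3 fell (-0.22, 0.0463), so 4 were higher and 2 lower. Of 10 actin turnover genes, 0 passed edgeR unpaired, with 2 at an unadjusted p under 0.05 and 1 lower by DESeq2. In the paired fit the monomer binding thymosin Tmsb4x rose (0.31) and the filament severing gelsolin Gsn fell (-0.45), while Tmsb10 (0.26) and Dstn (0.17) did not pass. With block and length correction Tmsb4x did not pass either (0.12, adjusted p = 0.222), which left 0 higher and Gsn lower.

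Among the TGF-beta ligands and early targets, the matricellular gene Ctgf rose in the paired fit (0.40, adjusted p = 0.00848). The ligand gene Tgfb2 went the other way, from 34.9 to 17.5 CPM (-0.99), and fell in the paired fit (adjusted p = 0.00235). Tgfb1 (0.20) did not pass. Skil and Ltbp2 rose only with block and length correction (0.22 and 0.25, adjusted p = 0.0446 and 0.0479).

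**Figure D5:**
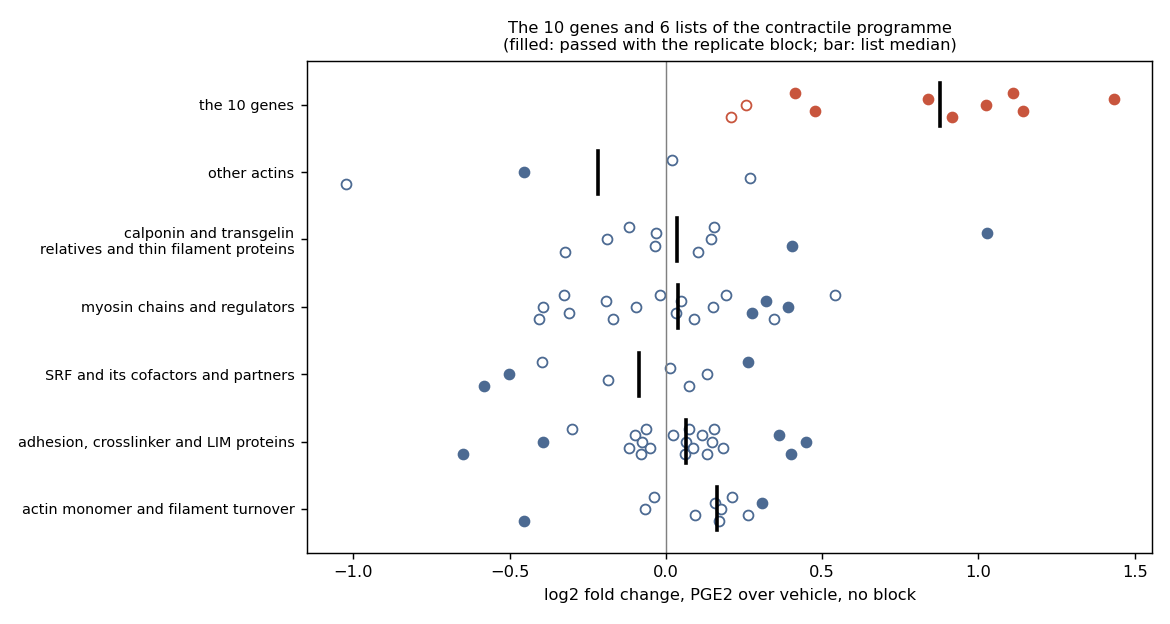
Log2 fold change of PGE2 over vehicle without a block (horizontal axis) for the 10 genes and for 6 of the 7 lists of the contractile programme, all but the TGF-beta list. Filled points passed with the replicate block and black bars are medians. The median of the 10 genes is 0.88 and that of the 4 other actins is -0.22. Of these actins Actb and Actg1 are at 0.02 and 0.27, and the sarcomeric Acta1 and Actc1 at -0.46 and -1.03.

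Markers of other cells that make these proteins were present. The lists share genes: Des is in both the myogenic and the smooth muscle and pericyte list. Lmod1 is in the latter and also among the thin filament genes above. In bulk RNA fewer cells of a type and less RNA per cell cannot be told apart. Summed over 12 myogenic genes, vehicle libraries 1 to 3 held 307, 95.6 and 69.6 CPM and PGE2 libraries 1 to 3 held 213, 32.4 and 32.3 CPM, lower under PGE2 in every pair and highest in both libraries numbered 1. Of its 10 tested members, 5 fell in the paired fit and 0 rose, and with block and length correction 2 fell, Myod1 and Acta1. The summed level of 10 smooth muscle and pericyte genes ranged from 170 to 238 CPM with vehicle and from 165 to 195 CPM with PGE2, with Lmod1 higher and Rgs5, Notch3, Cspg4 and Des lower in the paired fit. With block and length correction Lmod1 was still higher, and of the other 4 only Cspg4 still passed (adjusted p for Rgs5, Notch3 and Des = 0.0542, 0.0828 and 0.157). The value of Notch3 went from -0.47 to -0.28. Their part in the levels of the 10 genes was not tested.

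The 8 progenitor markers, led by Pdgfra and collagen genes, summed to 8717, 13391 and 16313 CPM in vehicle libraries 1 to 3. In PGE2 libraries 1 to 3 the sums were 8510, 14424 and 20698 CPM. Both libraries numbered 1 were thus the lowest of their group, and both numbered 3 the highest. Pdgfra itself, the defining marker, was at 1282 CPM with vehicle and 1288 CPM with PGE2. Ly6a and Thy1 rose and Cd34 fell with the block. Endothelial genes summed to 21.2 to 46.9 CPM and 19 to 33.2 CPM, leukocyte genes to 8.52 to 9.1 CPM and 11.5 to 12.3 CPM, and Schwann cell genes to 6.91 to 8.09 CPM and 4.24 to 5.1 CPM. Of these lists Cldn5, Ptprc and Sox10 had 0 counts in all libraries. Enough counts to be tested were found for 4 endothelial, 3 leukocyte and 3 Schwann cell genes. In the paired fit Tek and the Schwann cell genes S100b and Cdh19 fell, and Csf1r and Cd14 rose, but Cd14 did not with the length correction as well (adjusted p = 0.0684).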

How the data were processed

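The authors deposited whole-number counts per gene for 6 libraries, with no normalization, from paired reads of polyadenylated RNA, per the labels' protocols. Per the submitters' processing notes, mm10 was the build. How reads were aligned, counted and assigned to strands, and with which gene models, is not given in the sources used here. Totals are given in the results, and 3 counts set the lowest interpretable level. The 37 mitochondrial genes were listed at 0. Within groups, chi-square per degree of freedom between libraries was 19.3 to 93.1, far above sampling noise.

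Genes were kept by filterByExpr and scaled by trimmed mean of M values, and counts were tested with edgeR version 4.0.16 (robust quasi-likelihood, R version 4.3.3) over the whole table, and p-values adjusted by Benjamini-Hochberg were called under 0.05. The log2 CPM values used a prior count of 2, and the standard error of a log2 fold change was its size divided by the root of F. Positions and transcript lengths came from the GENCODE annotation of GRCm38 (mm10), which held 97.5% of the identifiers. The length correction added a lowess trend per library (span 0.3) to the offset. The fits without and with the block were tested on simulated data; the length correction was not.

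Pairing rested on the data. Deviations from the group means correlated at 0.621, 0.169 and 0.422 for numbers 1 to 3, all above 0.1, which was the rule for using the replicate block. Vehicle library 3 with PGE2 library 2 was at 0.252, above the value for number 2. Vehicle library 2 with PGE2 library 3 was at 0.145, also above 0.1. The rule could therefore not tell same-numbered from other combinations of libraries 2 and 3. The labels do not name a shared animal or day.

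The members and lists were chosen with earlier results of these data known. Named genes were the 10 members and up to 4 genes of each list with the smallest adjusted p. With them are 8 genes with the highest correlation with the members' mean among genes of at least 5 CPM. Family relatives and further genes past the paired test, with or without the length correction, are named as well, chosen after their values were seen. Mrtfa, Mrtfb and Ccn2 appear under their older symbols, and Adgre1 was not analysed here. Values of 1 further listed gene are not reported here. Alternatives were other scalings, no filter, DESeq2 version 1.42.0, limma-voom (limma version 3.58.1), the block, the length correction and each library or pair left out.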

Additional observations from a re-analysis of the deposited data

How the results depend on the processing

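All 180 alternative log2 fold changes of the 10 genes, 18 for each, were above 0, as in the reported fit. What depended on the processing was how many passed. Against 1 of the 10 unpaired, 8 passed with the replicate block, 3 with the replicate block and the length correction, 7 with DESeq2, 2 with no filter, and 0 with limma-voom or the length correction alone, each of these last with 8 at an unadjusted p under 0.05. The count was 0 to 1 with any library left out and 6 to 9 in the paired fit with any pair left out. Over all genes, 52 became 2189 with the replicate block, 2549 with the block and length correction, 932 with DESeq2, 285 with no filter, and 15 with limma-voom or the length correction. It was 0 to 120 with any library left out, the 0 arising without vehicle library 2 or 3 or PGE2 library 2 or 3 (1871, 3697, 1494 and 2597 genes at an unadjusted p under 0.05), and 1160, 1372 or 5097 in the paired fit without pair 2, 1 or 3. Of the other contractile genes 1 became 19 with the block, 22 with block and length correction, 15 with DESeq2, 2 with no filter and 0 with the length correction alone (18 at an unadjusted p under 0.05), with 0 to 3 and 9 to 38 when libraries or pairs were left out. Of 49 alternative family share differences 47 kept their direction; those of Tpm1 without vehicle library 1 (-0.0433 percentage points) and Tpm2 without vehicle library 3 (-0.0234) did not. Without a library these ranged up to 3.73 and 1.31. The cause of these differences was not tested. With 3 libraries per group, the share tests could not pass 0.05 at any size of difference.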
